A study of Mus musculus with 6 samples.

Results

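The 404 probes described here belong to a class of small RNA probes whose identifiers carry the code PST. They are the 404 of 2716 PST probes that gave a signal well above background on all 6 arrays, among 14192 small RNA probes in all. They were chosen by the detection flag that the scanner software sets for each spot, and detection on every array is therefore not a result. The files do not expand the code PST, and they pair no identifier with an RNA name, a sequence or a genome position. Probes are therefore given by identifier or by their order of brightness, and the RNA each reports is unknown here.

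The study compared the hearts of male C57BL/6J mice, 6 to 8 weeks old, 3 days after surgery. Myocardial infarction (MI) was produced in 1 group by tying the left anterior descending branch of the coronary artery, and infarcted tissue was taken for 3 arrays. Sham mice had the thread passed but left untied, and the matching tissue was taken for another 3 arrays. The labels do not say whether an array held RNA of 1 mouse, so p-values measure only the spread between these samples.

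Small non-coding RNAs range from the short regulators called miRNAs and fragments cut from tRNAs to longer species that guide, splice or process other RNAs. The arrays label whatever RNA ends are present, by joining a Cy3-carrying nucleotide to the 3′ end after phosphates have been removed, and a probe reports any labelled RNA that binds it. Tying a coronary artery kills heart muscle downstream, and inflammatory cells enter the injured wall in the days that follow. A change in bulk tissue can come from fewer cells of a type or from less RNA per cell, and these cannot be told apart. None of 24 listed marker genes of heart muscle and other cell types was among the 46 named mRNA probes, so tissue makeup was not checked.

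Slide 1 carried the MI group and also sham 1, whereas slide 2 carried the remaining 2 sham arrays. Slide and group therefore cannot be fully told apart. No spot was saturated. The 75th percentile of signal over all probes, which sets the scale of an array in the main test, was 68.6 to 97.4 on the MI arrays and 42.9 to 83.0 on the sham arrays, so these overlapped. The members' median signal, in the deposited intensity units without scaling, was 17.6, 22.8 and 21.2 on the MI arrays and 15.7, 19.1 and 22.9 on the sham arrays, and the groups overlapped.

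Most members were dim and a few were very bright. Averaged over the 6 arrays on the log2 scale, 46 members lay below 8 intensity units, 126 from 8 to 16, 85 from 16 to 32, 57 from 32 to 64, 42 from 64 to 128 and 13 from 128 to 200. The remaining 35 (8.66%) reached 200 or more and are called bright here, and 6 of these exceeded 10000. The distribution kept a long upper tail even on the log2 scale, with a skewness of 2.12 to 2.29 over the arrays. The 77 negative control spots on each array had a median signal of 1.02 units. Probes of different sequence bind and label differently, so these levels do not rank amounts of RNA.

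The other classes of probe were coded MIRNA and TRF. MIRNA was much like PST in skewness and in the share that reached 200 units, and TRF differed from both. Among probes detected on all 6 arrays, the mean log2 signal had a skewness of 2.25 for PST, 2.10 for 9415 MIRNA probes and 0.63 for 1735 TRF probes. A mean signal of 200 was reached by 6.67% of the MIRNA probes and 47.1% of the TRF probes. The 95th percentile was 45.8 times the median in PST, 8.82 times in MIRNA and 810 times in TRF. PST lay between the others by this measure. A dim majority with few bright probes was shared by PST and MIRNA.

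The brightest member, ASMM10SMR20PST100018510TV1, gave 105424, 119254 and 114409 units on MI 1 to MI 3 and 116804, 114372 and 133029 on sham 1 to sham 3. Its groups overlapped. The second, ASMM10SMR20PST100033973TV1, gave 73975, 75762 and 67735 on the MI arrays and 79250, 83979 and 97519 on the sham arrays, so each MI value was below each sham value. The third, ASMM10SMR20PST100028054TV1, gave 61936, 71400 and 63333 against 66462, 70597 and 84585, with overlap. These 3 were not called different by limma (adjusted p 0.114 to 0.162).

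The next 3 in brightness were lower in MI in every comparison of single arrays. The fourth gave 40053, 39830 and 39529 units on the MI arrays and 52761, 51704 and 67795 on the sham arrays. The fifth gave 36734, 31470 and 29065 against 57274, 50108 and 64517, the widest gap of the 6 brightest. The sixth gave 22919, 24787 and 21797 against 34323, 31460 and 43171. The scaled test put their log2 differences (MI minus sham) at -1.04, -1.35 and -1.16, with limma adjusted p-values of 0.0285, 0.0249 and 0.0220. These calls ended without scaling, where the log2 differences were -0.52, -0.82 and -0.64 (adjusted p = 0.344 for each).

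The limit of 200 units fell in a continuous stretch of the distribution. The 2 members just inside it gave 183 to 309 and 88.2 to 543 units over the arrays, and the 2 just outside gave 157 to 256 and 122 to 266. The member at 88.2 to 543 units was ASMM10SMR20PST100028110TV1. It lay below the limit on every sham array and above it on every MI array, so it counts as bright only through its MI signal. The flag for detection was as gradual. The dimmest members averaged 5.98 and 6.11 units, while the brightest PST probes that missed the flag on a single array averaged 14.1 and 11.3. In all, 62 PST probes carried the flag on 5 arrays and 1893 on none.

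The order of the members by signal was much alike from array to array. Spearman's rho over the 404 members ran from 0.958 to 0.973 between MI arrays, from 0.939 to 0.968 between sham arrays and from 0.934 to 0.949 between groups. These describe shared probes, whose sequence and position are the same on each array, and are not evidence of a shared response. The 6 brightest members kept the first 6 places on every array, and on sham 1 alone the probes at places 4 and 5 were exchanged. After each array was centred on the members' median, the SD within a group had a median of 0.20 on the log2 scale, 0.19 for bright and 0.20 for dim members. The software's own error of a spot was 10% for bright members and 11.1 to 12.1% for dim ones. Each member had 1 spot per array, so no repeat within an array was available. The spots were spread over the whole array, in rows 1 to 191 and columns 1 to 82.

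Infarction was tested with a linear model (limma) over 11974 small RNA probes, after each array was scaled by its 75th percentile, with p-values adjusted over all of them and a threshold of 0.05. All 404 members entered the test, since the detection rule is stricter than its filter. It called 4 members higher in MI (0.990%) and 37 lower (9.16%), where 0.309% of all tested probes were called higher and 3.79% lower. The median log2 difference was -0.46 over the members and -0.07 over all tested probes. Of the 404, 368 had a negative difference, as did 7047 of all 11974 tested probes. Without scaling the median was 0.06 over the members and 0.46 over all tested probes. A negative difference was then found in 177 members and in 1788 of all tested probes.

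The 4 members that rose did so by a similar factor although their brightness differed widely. ASMM10SMR20PST100028110TV1 gave 343, 503 and 543 units on the MI arrays and 88.2, 101 and 108 on the sham arrays. Every MI value was more than 3 times every sham value. The MI mean of 463 ± 106 was 4.67 times the sham mean of 99.0 ± 9.99 (SD, n = 3 each). The scaled log2 difference was 1.68 (SE 0.23, limma adjusted p = 0.0125).

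ASMM10SMR20PST100032028TV1, which is dim, gave 141, 202 and 209 units in MI and 47.1, 48.6 and 65.6 in sham. Its groups were apart, with a scaled log2 difference of 1.25 (SE 0.18, limma adjusted p = 0.0142). The third rise, also of a dim member, was from 34.1, 33.4 and 39.7 units in sham to 105, 134 and 127 in MI, a log2 difference of 1.24 (adjusted p = 0.0181). The fourth was that of the seventh brightest member, at 7308, 7682 and 9564 in MI and 2181, 2775 and 2359 in sham, a log2 difference of 1.22 (adjusted p = 0.0479). Unscaled, the means of the 4 were 3.36 to 4.67 times higher in MI.

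The 4 rises were positive in every setting tried, and whether they were called varied. Without scaling, limma called 4 members higher, and with each array scaled to the members' own median it also called 4, and they were the same probes. The share of all tested probes called higher was 0.276% without scaling and 0.409% with scaling to the members. Neither of those limma fits called a probe lower (0%). At an unadjusted p under 0.05 they had 44 and 55 members, and 1275 and 1513 of the 11974 tested probes. Quantile normalization kept 3 of the 4 calls and scaling by the median of each array kept 2. With slide as a block limma called 0 members and 0% of all tested probes. That fit had 73 members and 1454 of 11973 tested probes at an unadjusted p under 0.05. Within slide 1 the MI arrays met sham 1 alone, and only sizes are given for that fit. Slide 2 held no MI array, so with slide as a block the difference between groups also came from slide 1 alone. The log2 differences of the 4 were therefore the same in both fits, at 1.13 to 1.66. Scaled to the members' median, slide 1 alone called all 4, with 5 members higher and 1 lower in all, where 0.768% and 0.2% of all tested probes were called. That test has a single sham array and takes its spread from the MI group. Leaving out MI 2 or sham 1 also ended every call of the scaled limma test, while the 4 stayed positive. At an unadjusted p under 0.05 there were then 183 and 121 members, and 2159 and 1457 of the 11974 tested probes.

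In unscaled means the members called lower changed by 1.23 to 1.96 times, less than the rises. In the scaled test the sizes were alike, with a median log2 difference of -1.25 for the falls and 1.24 for the rises. The largest scaled fall was that of ASMM10SMR20PST100024348TV1, at 593, 658 and 608 units in MI and 1056, 924 and 1669 in sham. The mean was 619 ± 34.0 against 1217 ± 397 (SD, n = 3 each), and its log2 difference was -1.45 (SE 0.17, limma adjusted p = 0.0116). The sham arrays spread far more than the MI arrays, with sham 3 the highest.

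ASMM10SMR20PST100046038TV1, a dim member, gave 35.2, 39.6 and 33.6 units in MI and 60.3, 54.6 and 93.6 in sham. Its groups were apart and its log2 difference was -1.43 (SE 0.19, limma adjusted p = 0.0125). Differences of -1.45 to -1.38 were found in the 8 members that fell most, which held places 22 to 156 in brightness. In each of the 8, sham 3 gave the highest value and every MI value was below every sham value. Of the 37 falls, 10 were in bright members, with a median log2 difference of -1.24, and 27 in dim ones, with a median of -1.25.

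Whether the falls were called depended on the scale and on single arrays. Left unscaled, or scaled to the members' median, none of the 37 was called, although all 37 stayed negative in both, and 31 still had every MI value below every sham value in unscaled signal. Scaling to the members' median takes out any change shared by the class, so the loss of calls there was partly built in. In the main scaled test the count of falls was 14 without sham 2, 13 without MI 3, 0 without MI 2 or sham 1 and 104 without sham 3. Those were 3.47%, 3.22%, 0% and 25.7% of the members, against 1.19%, 0.785%, 0% and 11.9% of all tested probes called lower. Relative to the 75th percentile of all small RNA probes, the members' median stood at -1.97, -1.79 and -2.20 on the MI arrays and at -1.67, -1.18 and -1.87 on the sham arrays (log2). Sham 2 was the highest of these and its place in the result was not tested beyond leaving it out.

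In unscaled signal the members moved both ways. Every MI value lay above every sham value in 46 members (11.4%) and below in 37 (9.16%), where 7.71% and 4.71% of all tested probes did so. Among bright members alone it was 5 above (14.3%) and 10 below (28.6%). The 5 include ASMM10SMR20PST100028110TV1, which counts as bright only through its MI signal. Bright probes of the other classes had like shares, 14.3% and 30.1% in TRF and 12.4% and 33.3% in MIRNA. Among dim members it was 41 above (11.1%) and 27 below (7.32%). The shares were 13.0% and 0.981% of dim TRF probes and 5.72% and 0.683% of dim MIRNA probes. Besides the bright members already named as rising, the eighth brightest gave 4104, 4498 and 3560 units in MI against 2426, 2694 and 2816 in sham. The eighteenth gave 1298, 2009 and 1554 against 841, 975 and 1192, and the twenty-fourth gave 876, 701 and 1070 against 265, 525 and 322. These 3 were not called in the scaled test or without scaling.

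Ranks within the class are free of the scale of an array, and a place gained by a member is lost by others. Each member was ranked on each array by its signal, with place 1 the brightest. The 3 MI ranks were all nearer the top than the 3 sham ranks in 62 members (15.3%), and all lower in another 62 (15.3%). Over all probes detected on the 6 arrays, ranked within their own class, the shares were 9.81% and 14.1%. Ranking within a class fixes the mean rank but not these counts, which were 11.3% and 18.6% in TRF and 9.29% and 13.3% in MIRNA. The share of members that lost places was near that of all probes. All 4 called rises and 30 of the 37 called falls were among the members with separate ranks.

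A place stands for a large difference in signal among the bright members, which lie far apart, and for a small one among the crowded dim members. The bright member with the largest rise went from places 61, 62 and 62 in sham to 29, 28 and 24 in MI. It counts as bright only through its MI signal, since every sham value lay below the bright limit. The seventh brightest member was seventh on each MI array and at places 11, 10 and 13 on the sham arrays. The largest gain in places was of a dim member, from 220, 251 and 310 in sham to 142, 129 and 144 in MI. Its signals were 14.5, 12.9 and 10.7 units in sham and 29.9, 43.9 and 33.1 in MI, and it was not called (log2 difference 0.95, limma adjusted p = 0.167). The largest loss was from places 268, 306 and 275 to 395, 370 and 390, in a member at 10.9, 9.95 and 12.8 units in sham and 5.59, 7.79 and 6.82 in MI. This one was called lower (log2 difference -1.27, adjusted p = 0.0174).

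As sets, bright and dim members kept nearly the same distance. The median of the bright members exceeded that of the dim ones by 6.05, 6.14 and 6.18 on the MI arrays and by 6.18, 6.26 and 6.25 on the sham arrays (log2). The means were 6.12 ± 0.07 and 6.23 ± 0.04 (SD, n = 3 each), a change of -0.11, and MI 3 and sham 1 were level. Over the bright members the median unscaled log2 difference was -0.17, with 12 positive and 23 negative. Over the dim members it was 0.08, with 215 positive and 154 negative. Over all tested probes it was 0.46, with 10186 positive and 1788 negative.

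Summed over the members, unscaled signal was lower on the MI arrays, and the brightest probes made nearly all of that sum. The sum was 388703, 419242 and 390335 units in MI and 450650, 448481 and 547849 in sham, without overlap. The 35 bright members held 96.6 to 97.0% of it in MI and 97.4 to 97.7% in sham. The 6 brightest held 86.0 to 87.7% in MI and 89.6 to 90.3% in sham, while the brightest alone held 27.1 to 29.3% and 24.3 to 25.9%. Each of these ranges was apart between the groups. A share of signal depends on how each probe labels and binds, and no test was run over these sums.

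Set beside probes of equal signal, the dim members of 8 units or more had the lowest median difference of the 3 classes. The 46 members below 8 units are not in this comparison. Between 32 and 64 units the median unscaled log2 difference was -0.06 for 57 PST members, 0.55 for 252 TRF probes and 0.57 for 2528 MIRNA probes. Between 8 and 16 units it was 0.12, 0.40 and 0.37. In the scaled test 15.8% of the 57 members between 32 and 64 units were called lower, the highest share of PST among the steps of signal, against 2.78% of TRF and 1.58% of MIRNA probes. Between 128 and 200 units the shares were closer, at 7.69% (1 of 13), 7.06% and 4.36%. Between 8 and 16 units 3.17% of the PST members were called lower, against 0% and 0.316%. Among bright probes the share called lower was 28.6% for PST, 9.54% for TRF and 31.5% for MIRNA. No test of these class differences was run.

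Taken within each array, which removes the scale, the members between 16 and 128 units stood at -0.15, -0.06 and -0.49 relative to MIRNA probes of equal mean signal on the MI arrays. On the sham arrays they stood at 0.10, 0.62 and -0.10 (log2). The group means were -0.23 ± 0.23 and 0.20 ± 0.37 (SD, n = 3 each), and the groups overlapped through MI 2 and sham 3. Within slide 1 the change was -0.33, against -0.43 over all arrays. Relative to TRF probes the members stood at -0.15, -0.10 and -0.55 on the MI arrays and at 0.12, 0.54 and -0.04 on the sham arrays, and these groups did not overlap. The change was -0.47 over all arrays and -0.38 within slide 1. Sham 2 gave the highest value in both contrasts.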

How the data were processed

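The deposited intensity of each spot is linear, and the submitters' processing notes name Agilent Feature Extraction, version 11.0.1.1. Per the file headers the background was subtracted, and on sham 3 alone the signal was also detrended across the slide (root mean square 0.0913). The deposited flags mark, as 0 or 1, spots well above background. Members and lists were chosen with earlier results of these data known.

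Members carried that flag on all 6 arrays. Spots marked as outliers were left out of the fits, which dropped sham 2 for 1 member. Signals were put on the log2 scale and scaled by each array's 75th percentile over non-control probes. Small RNA probes flagged on at least 3 of the 6 arrays were tested with limma 3.58.1 in R 4.3.3 (lmFit and eBayes, group only, Benjamini-Hochberg adjustment at 0.05), after the script had been tested on simulated data. Ranks, sums and shares used unscaled signal. The members to be described were the called ones with the 8 largest rises and falls and no overlap of groups, the 6 brightest, the 2 on each side of 200 units, and the 4 largest rank changes each way. Since no table names the probes, 2 identifiers are printed in each direction. Background correction, normalization, scaling, filters, slide, variance model, threshold and arrays left out were varied. The comparisons with other classes at equal signal were added after seeing the data.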

Additional observations from a re-analysis of the deposited data

Results flagged for a closer look

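PST probes outside the 404 were not used in the comparisons. Of them, 25 were well above background on all 3 MI arrays and on no sham array, and 1 was so on all 3 sham arrays and no MI array. They were looked at because they gave a signal in MI above the level in the controls. The 25 were faint, with unscaled means of 5.32 to 9.10 units in MI (median 6.68) and 2.79 to 4.55 in sham (median 3.52). Limma called 1 of the 25 in the scaled test, and it also called the probe found on the sham arrays alone. These probes passed the filter of at least 3 arrays through a single group. The choice by flag largely fixed the direction in advance, so the means and calls are no support for it. Detection on all 3 MI arrays and no sham array held for 27 (0.190%) of all 14192 small RNA probes, and the reverse for 1. The 25 are 0.920% of the PST probes, and TRF and MIRNA each had 1 such probe. Few TRF and MIRNA probes could show the pattern. On all 6 arrays 1735 of 1767 TRF and 9415 of 9709 MIRNA probes carried the flag, against 404 of 2716 PST probes. The shares of the classes are therefore not comparable. The 75th percentile of all probes was 68.6 to 97.4 on the MI arrays and 42.9 to 83.0 on the sham arrays, and its part in this count was not tested.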

How the results depend on the processing

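The counts of members called, 4 higher and 37 lower, are given here as higher and lower. They were 3 and 17 with quantile normalization, 2 and 12 with median scaling, 4 and 0 without scaling, 6 and 0 with scaling to high-signal probes, 4 and 0 with scaling to the members, and 3 and 21 with no filter. They were 2 and 9 among probes of mean signal 200 or more (35 members), and 0 and 0 with slide as a block. At an unadjusted limma p under 0.05 that fit had 73 members and 1454 of 11973 tested probes. The counts were 11 and 86 with array weights, and 7 and 137 when an unadjusted p and a 1.5-fold difference were required instead. No share over all tested probes is given at that last threshold, here or relative to the members' own median. Shares of all tested probes called, higher and lower, moved as well. They were 0.543% and 0.76% with quantile normalization, 0.15% and 0.894% with median scaling, and 0.183% and 1.78% with no filter. Scaling to high-signal probes gave 0.735% and 0.217%. With array weights they were 1.34% and 11.2%, and among probes of mean signal 200 or more 1.76% and 22.1%. Without single arrays the members' counts ranged from 0 to 7 and from 0 to 104. The shares of all tested probes then ranged from 0% to 0.76% and from 0% to 11.9%. Relative to the members' own median the counts, 4 and 0, were 0 and 0 with slide as a block. At an unadjusted limma p under 0.05 that fit had 33 members and 475 of 11973 tested probes. The counts were 23 and 32 with array weights, and 6 and 1 with the other variance model. They were 3 and 7 among probes of mean signal 200 or more, 19 and 33 at the unadjusted threshold, and 0 to 15 and 0 to 21 without single arrays. Without sham 2 they were 15 and 21. Without sham 1 they were 0 and 0, with 49 members and 885 of 11974 tested probes at an unadjusted limma p under 0.05. Over all tested probes the shares called were 2.81% and 3.35% with array weights, and 0.793% and 0.526% with the other variance model. They were 5.67% and 13.0% among probes of mean signal 200 or more, and 1.83% and 2.0% without sham 2. Without scaling the members' median moved from -0.46 to 0.06, and that of all tested probes from -0.07 to 0.46. The members' median was -0.08 with scaling to high-signal probes and -0.04 with scaling to the members, which draws it to 0 by construction. The change of bright against dim, -0.11, was -0.02 with normexp, -0.21 when the software's other detection flag, of positive and significant spots, chose 1139 members and -0.22 with a limit of 400. The 124 members with separate ranks became 236 by that flag and 257 within slide 1, where 3 arrays meet 1. Among single members, 3 of the brightest turned to 0.07, 0.06 and 0.14 with quantile normalization, and 1 at the bright limit to 0.18, 0.04 and 0.07 without scaling and with scaling to high-signal probes and to the members. With normexp 3 faint members with rank gains turned to -0.11, -0.10 and -0.16. None of these 7 was called by the main scaled test. Over 40 other fits, those on the members' own median included, the 4 rises lay between 0.70 and 2.20 and the 8 largest falls between -1.70 and -0.34. The replicate block gave 5 higher and 90 lower (1.24% and 22.3%), where 0.618% and 8.74% of all tested probes were called. Relative to the own median it gave 16 and 25 (3.96% and 6.19%), against 7.22% and 2.15% of all tested probes. The labels do not say what a number shares: same-numbered arrays correlated at 0.118, -0.221 and 0.159 in their deviations, and the closest partner of 3 among the 6 arrays bore its number. Except where the construction shows it, as with fewer probes tested or fewer arrays, the cause was not tested. With 3 arrays a group and 1 spot a probe, smaller changes may be missed.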
